A study of Drosophila melanogaster with 15 samples.

Results

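The circadian clock genes of *Drosophila melanogaster* were taken here as 10 genes of the deposited expression table, namely *per*, *tim*, *Clk*, *cyc*, *vri*, *Pdp1*, *cwo*, *CG31324* (now named *Cipc*), *cry* and *Pdf*. They were chosen by name, with earlier results of these data known, as were the gene lists further below. Counts of calls among them, set beside the shares over all genes, are therefore descriptions. The 10 genes account for 29 of the 18960 transcripts and 10 of the 11257 genes in the table. *tim* has 10 of these transcripts, *Pdp1* has 7, *vri* and *Clk* have 3 each, and the other 6 genes have 1 each. All 29 transcripts passed the filter on low values in every comparison. Each gene is described by its lead transcript, the one with the highest mean over the 15 libraries.

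The fly clock is a transcriptional feedback loop. CLK and CYC bind E-boxes as a pair and switch on *per* and *tim*, whose proteins build up over hours, enter the nucleus and silence CLK and CYC until they are degraded again. Interlocked arms run through *vri* and *Pdp1*, which repress and activate *Clk*, and through the repressor *cwo*, while light resets the loop through the blue-light receptor *cry* and the neuropeptide PDF carries timing from clock neurons to the rest of the brain. In fly heads the mRNAs of *per*, *tim* and *vri* are known to peak in the evening and those of *Clk* and *cry* around dawn, and much of the cycling RNA of a head comes from the compound eyes, glia and fat body as well as from neurons.

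Heads came from adult male flies of an isogenic *w1118* strain (WT) and of *dDATfmn* flies (*DAT* mutant), which carry part of a roo transposon in an intron of the dopamine transporter gene and were back-crossed to the same *w1118* strain. Flies of both strains were aged for 7 days under 12 h of light and 12 h of darkness and then kept singly for 48 h on agar and sucrose food in water (vehicle) or with 10 mM amphetamine (AMPH). Each group had 4 libraries, apart from *DAT* mutant AMPH with 3, each made from the polyA RNA of 1 fly. The tissue is labelled both brain and head, and the photoreceptor list, which a dissected brain would hold at low levels, summed to 31410 RPKM or more in every library used, so the libraries are read here as whole heads.

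The time of day at which heads were taken is not given in the sources used here, and each fly gives 1 time point. A shift in clock phase and a change in level at the same phase therefore cannot be told apart, and in bulk RNA neither can fewer cells of a type and less RNA per cell. The values are RPKM, reads scaled to the length of the transcript and to the mapped reads of the library. If the smallest step between values is 1 read, the libraries held 11100000 to 77700000 reads, with medians of 53900000 in WT vehicle, 53950000 in WT AMPH, 11600000 in *DAT* mutant vehicle and 41800000 in *DAT* mutant AMPH, so depth differs between the strains on vehicle. The part of depth in the differences below was not tested.

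A pair of libraries, replicate 1 of WT vehicle and replicate 2 of *DAT* mutant vehicle, do not enter the group means of the study and were left out of the fits, which used 13 libraries. *DAT* mutant vehicle replicate 2 stood apart from all others, with a median of 9.59 RPKM against 15.6 to 18.1 RPKM in the other 14 libraries and a best rank correlation of 0.859 with its own group, against 0.972 or more elsewhere. WT vehicle replicate 1 had a median of 17.5 RPKM and a best rank correlation of 0.972, the lowest of these 14. Its clock values lay inside the range of its group for every gene but *CG31324*. Adding it changed the number of all transcripts called in WT on AMPH from 3868 to 5167. With *DAT* mutant vehicle replicate 2 alone left out, every clock gene called below kept its call. With both libraries included, none of the 29 clock transcripts was called in either comparison that uses the *DAT* mutant vehicle group, nor in the test of the difference between responses. By limma 1 and 3 of the 29 had an unadjusted p under 0.05 in those comparisons and 2 in the test of the difference, and the values with and without it are given for each.

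Among WT vehicle flies the lead transcripts ranged from *Pdf* at 128 ± 90.8 RPKM (SD, n = 3), *Pdp1* at 124 ± 15.7, *tim* at 116 ± 26.1, *cry* at 94.4 ± 10.8 and *vri* at 72.3 ± 8.13, through *per* at 41.2 ± 10.5 and *cyc* at 29.2 ± 2.499, to *cwo* at 16.0 ± 2.59, *CG31324* at 12.8 ± 1.249 and *Clk* at 12.3 ± 1.76 RPKM. The libraries of *Pdf*, *Pdp1* and *tim* overlapped, as did those of *Clk* and *CG31324*, so the order within those sets is not resolved. The plot of levels by library shows that the levels of *Pdp1* did not separate the groups, whereas every other clock gene had a pair of groups without overlap. The share of all transcripts without overlap was not computed, so such separation is a description only.

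**Figure D1:**
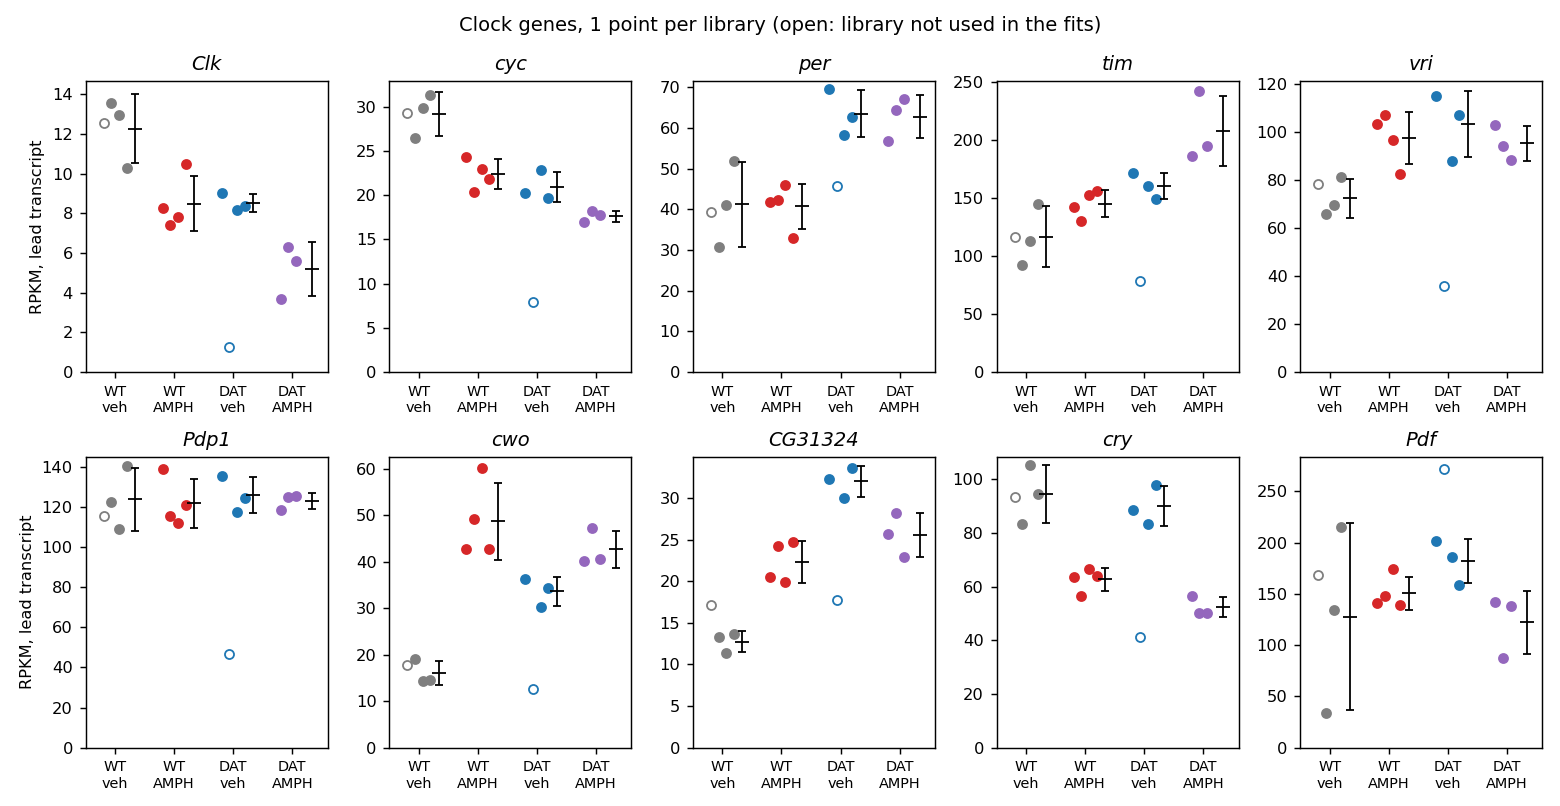
RPKM of the lead transcript of each clock gene (vertical axes, from 0) in WT vehicle, WT AMPH, *DAT* mutant vehicle and *DAT* mutant AMPH heads, with 1 point per library and the mean ± SD of the 13 libraries used in black (n = 3, 4, 3 and 3). Open points mark the libraries that were left out, of which *DAT* mutant vehicle replicate 2 lies lowest in its group for every gene but *Pdf*, and *cwo* in WT vehicle flies, at 14.4 to 19.0 RPKM, lies below every other library used.

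The activator *Clk* was highest in WT vehicle flies. Its level was 13.6, 12.96 and 10.3 RPKM in the 3 WT vehicle libraries and 8.24, 7.42, 7.80 and 10.5 RPKM in the 4 of WT AMPH. It was 9.01, 8.16 and 8.38 RPKM in *DAT* mutant vehicle and 3.70, 6.30 and 5.60 RPKM in *DAT* mutant AMPH. Thus the highest WT AMPH library exceeded the lowest of WT vehicle, while all *DAT* mutant vehicle libraries lay below those of WT vehicle and all *DAT* mutant AMPH libraries lay below every other library used. Its partner *cyc* was likewise highest in WT vehicle and lowest in *DAT* mutant AMPH. *cyc* stood at 26.4, 29.9 and 31.3 RPKM in WT vehicle and at 24.3, 20.4, 23.0 and 21.8 RPKM in WT AMPH. It stood at 20.3, 22.9 and 19.7 RPKM in *DAT* mutant vehicle and at 16.9, 18.2 and 17.8 RPKM in *DAT* mutant AMPH. The *cyc* libraries of WT vehicle did not overlap any other group, nor did those of *DAT* mutant AMPH.

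The repressors *per* and *tim*, direct targets of CLK and CYC, had higher mean levels in the *DAT* mutant, where those of *Clk* and *cyc* were lower. For *tim* on vehicle, and for *Clk* and *cyc* on AMPH, the strain difference did not pass the threshold used below. *per* stood at 30.8, 41.1 and 51.8 RPKM in WT vehicle and at 41.8, 42.4, 45.8 and 32.9 RPKM in WT AMPH. In the *DAT* mutant it stood at 69.6, 58.2 and 62.8 RPKM on vehicle and at 56.8, 64.4 and 67.0 RPKM on AMPH. All 6 *DAT* mutant libraries used lay above all 7 of WT, and within each strain the vehicle and AMPH libraries overlapped. *tim* stood at 92.4, 113 and 144 RPKM in WT vehicle and at 142, 130.1, 152 and 156 RPKM in WT AMPH. It stood at 171, 160.0 and 149 RPKM in *DAT* mutant vehicle and at 186, 242 and 195 RPKM in *DAT* mutant AMPH, where every library exceeded every other one.

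Of the pair that regulates *Clk*, *vri* rose in WT flies on AMPH and *Pdp1* gave no difference past the threshold. *vri* stood at 65.8, 69.7 and 81.4 RPKM in WT vehicle, below the other 3 groups, whose libraries lay between 82.5 and 114.8 RPKM. *Pdp1* lay between 109 and 140.2 RPKM in WT vehicle and between 112 and 139 RPKM in the libraries of the other groups.

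The repressor *cwo* was the gene with the largest called change on AMPH in WT. It stood at 19.0, 14.4 and 14.6 RPKM in WT vehicle and at 42.7, 49.1, 60.2 and 42.7 RPKM in WT AMPH. In the *DAT* mutant it stood at 36.3, 30.2 and 34.4 RPKM on vehicle and at 40.1, 47.3 and 40.6 RPKM on AMPH. WT vehicle was thus the low group, with no library near the others. *CG31324*, whose mammalian counterpart CIPC binds CLOCK and inhibits it, was also lowest in WT vehicle but highest in *DAT* mutant vehicle. It stood at 13.3, 11.3 and 13.6 RPKM in WT vehicle and at 20.45, 24.2, 19.9 and 24.7 RPKM in WT AMPH. It stood at 32.3, 30.0 and 33.6 RPKM in *DAT* mutant vehicle and at 25.7, 28.2 and 22.8 RPKM in *DAT* mutant AMPH. Every *DAT* mutant vehicle library of *CG31324* exceeded every library of the other groups.

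The light receptor *cry* separated by treatment in both strains. It stood at 83.5, 105 and 94.5 RPKM in WT vehicle and at 63.7, 56.6, 66.8 and 64.0 RPKM in WT AMPH. In the *DAT* mutant it stood at 88.6, 83.4 and 98.0 RPKM on vehicle and at 56.7, 50.2 and 50.3 RPKM on AMPH. No AMPH library reached any vehicle library used, and the vehicle libraries of the strains overlapped. *Pdf*, made by a small set of clock neurons, was the most uneven gene. It stood at 34.1, 134 and 215 RPKM in WT vehicle, at 139 to 174 RPKM in WT AMPH, at 201, 186 and 159 RPKM in *DAT* mutant vehicle and at 142, 87.2 and 138 RPKM in *DAT* mutant AMPH, so that WT vehicle alone spanned all the others.

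The libraries left out held the following levels. In WT vehicle replicate 1 they were *Clk* 12.6, *cyc* 29.2, *per* 39.3, *tim* 116, *vri* 78.2, *Pdp1* 116, *cwo* 17.9, *CG31324* 17.1, *cry* 93.4 and *Pdf* 168 RPKM. In *DAT* mutant vehicle replicate 2 they were *Clk* 1.27, *cyc* 7.95, *per* 45.7, *tim* 78.3, *vri* 35.7, *Pdp1* 46.5, *cwo* 12.7, *CG31324* 17.7, *cry* 41.3 and *Pdf* 272 RPKM. *Clk* in that library rests on about 67 reads if 1 step is 1 read and the transcript has its length in a later annotation. This was the fewest behind any value of a lead transcript with a length there, which that of *tim* lacks. The length used for the deposited RPKM may differ.

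The first comparison asks how WT heads responded to AMPH. *cwo* rose 3.04-fold in mean level (log2 fold change 1.54 ± 0.15 (SE), adjusted p = 0.00095) and *CG31324* 1.75-fold (0.76 ± 0.12, adjusted p = 0.0053), while *cry* fell to 0.665 of its vehicle level (-0.58 ± 0.11, adjusted p = 0.015). *vri* rose (0.42 ± 0.13, adjusted p = 0.061), and *Clk* (-0.49 ± 0.14, adjusted p = 0.054) and *cyc* (-0.37 ± 0.10, adjusted p = 0.045) fell. *tim* (0.33 ± 0.16, adjusted p = 0.2), *per* (0.00 ± 0.18), *Pdp1* (-0.02 ± 0.13) and *Pdf* (0.58 ± 0.52) did not pass the threshold of 0.1. These values come from limma on log2(RPKM + 1), with Benjamini-Hochberg adjustment over all transcripts tested, and on that scale changes of low genes are understated.

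Thus 3 of the 10 clock genes were called higher and 3 lower, against 7.93% called higher and 12.3% called lower among the lead transcripts of all genes tested. Of the clock transcripts, 10 of 29 were called, against 22.0% of all transcripts, and transcripts of the same gene share reads. The median change of the 10 genes was 0.17 and that of all lead transcripts -0.04. Calls over all genes leaned downwards on AMPH. After the median of each library was set equal, 57.5% of all lead calls were upward in place of 39.2%, and among the clock genes *cyc* lost its call (adjusted p = 0.103).

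*cwo*, *CG31324* and *cry* kept their calls in all 7 fits that left out 1 library. *Clk* lost its call without WT vehicle replicate 2 (adjusted p = 0.176), WT vehicle replicate 3 (0.161), WT AMPH replicate 2 (0.119) or WT AMPH replicate 3 (0.117), and *vri* without the same libraries (0.197, 0.173, 0.125 and 0.112). *cyc* lost it without WT vehicle replicate 3 (0.137) or replicate 4 (0.148), and *tim* gained a call without WT vehicle replicate 4 (0.0853). With WT vehicle replicate 1 added the same 6 genes were called, with *cwo* at 1.503 and *CG31324* at 0.66.

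**Figure D2:**
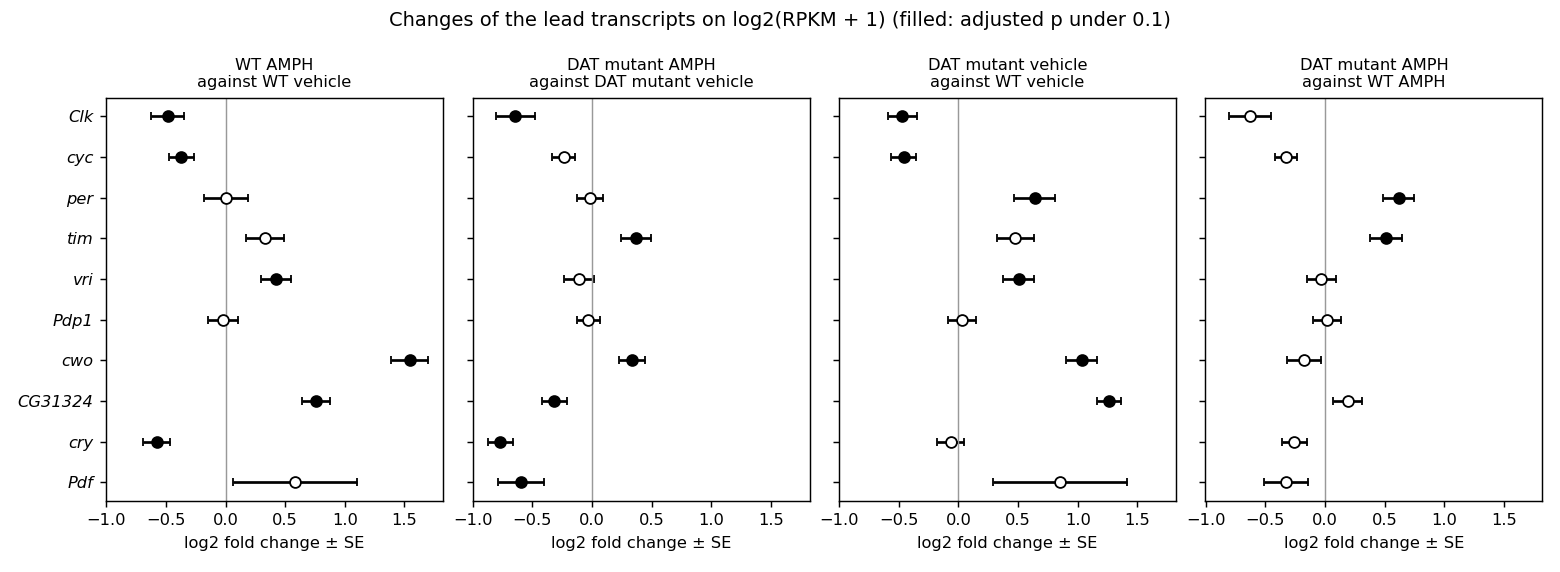
Log2 fold change ± SE of the lead transcript of each clock gene on the log2(RPKM + 1) scale (horizontal axis) in the 4 pairwise comparisons of the 13 libraries, with filled points where the adjusted p was under 0.1. *cwo* changed by 1.54 in WT on AMPH but by 0.33 in the *DAT* mutant, and *cry* fell in both strains, by 0.58 and 0.77.

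In *DAT* mutant heads, where the main target of AMPH is missing, *cry* again fell on AMPH, to 0.582 of its vehicle level (-0.77 ± 0.10, adjusted p = 0.0029). *Clk* fell to 0.611 of it (-0.64 ± 0.16, adjusted p = 0.034). Smaller changes were called for *tim* (0.37 ± 0.13, adjusted p = 0.093), *cwo* (0.33 ± 0.11, adjusted p = 0.081), *CG31324* (-0.32 ± 0.11, adjusted p = 0.086) and *Pdf* (-0.59 ± 0.19, adjusted p = 0.074). *cyc* (-0.24 ± 0.10, adjusted p = 0.14), *vri* (-0.11 ± 0.13), *per* (-0.02 ± 0.11) and *Pdp1* (-0.03 ± 0.10) did not pass.

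Here 2 of the 10 genes were called higher and 4 lower, against 7.85% higher and 13.5% lower among all lead transcripts, and 15 of 29 clock transcripts against 22.1% of all transcripts. Of these 15, 8 were of *tim* and 3 of *Clk*. The median change of the 10 genes was -0.17, and that of all lead transcripts -0.05. With library medians set equal, 56.1% of all lead calls were upward in place of 36.7%, and *CG31324* (adjusted p = 0.131) and *Pdf* (0.138) lost their calls.

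*cry* and *Clk* kept their calls in all 6 fits that left out 1 library, and the other 4 genes did not. *tim* kept it only without *DAT* mutant AMPH replicate 1, and reached an adjusted p of 0.127 to 0.26 without *DAT* mutant vehicle replicate 1, 3 or 4 or AMPH replicate 2 or 3. *cwo* lost it without vehicle replicate 3 (0.207) or 4 (0.178) or AMPH replicate 2 (0.218) or 3 (0.139). *CG31324* kept it only without AMPH replicate 2, with 0.107 to 0.241 without vehicle replicate 1, 3 or 4 or AMPH replicate 1 or 3. *Pdf* kept it only without AMPH replicate 1, with 0.112 to 0.19 without any other library. With *DAT* mutant vehicle replicate 2 included, *cry* was at -0.49 (adjusted p = 0.877), *Clk* at -0.12 (0.972), *tim* at 0.62 (0.694), *cwo* at 0.67 (0.781), *CG31324* at -0.11 (0.955) and *Pdf* at -0.74 (0.438), and 258 transcripts of all were called in place of 3862.

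The strains were compared on vehicle, without the drug. *CG31324* was 2.51-fold higher in the *DAT* mutant in mean level (1.26 ± 0.10, adjusted p = 0.00047), *cwo* 2.10-fold (1.03 ± 0.13, adjusted p = 0.0045), *per* 1.54-fold (0.64 ± 0.17, adjusted p = 0.085) and *vri* 1.43-fold (0.51 ± 0.13, adjusted p = 0.07). *cyc* was lower, at 0.717 of WT (-0.46 ± 0.10, adjusted p = 0.045), as was *Clk*, at 0.694 of it (-0.47 ± 0.12, adjusted p = 0.07). *tim* (0.48 ± 0.16, adjusted p = 0.14), *Pdf* (0.85 ± 0.56), *cry* (-0.07 ± 0.11) and *Pdp1* (0.03 ± 0.12) did not pass.

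With 4 of 10 genes called higher and 2 lower, the clock genes stood against 4.12% higher and 4.44% lower among all lead transcripts, and 10 of 29 clock transcripts against 8.45% of all. Their median change was 0.49, and that of all lead transcripts -0.01. This comparison shares its WT vehicle libraries with the AMPH comparison in WT, so the same libraries set the low side of *cwo* and *CG31324* in both.

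*CG31324* and *cwo* were called in all 6 fits that left out 1 library. *cyc* lost its call without WT vehicle replicate 3 (0.136) or 4 (0.1, above the threshold before rounding) or *DAT* mutant vehicle replicate 1 (0.118) or 4 (0.164). *vri* lost it without WT vehicle replicate 2 (0.192) or 3 (0.194) or *DAT* mutant vehicle replicate 1 (0.18) or 4 (0.217). *per* and *Clk* kept it only without WT vehicle replicate 4, and reached 0.115 to 0.218 and 0.121 to 0.203 without WT vehicle replicate 2 or 3 or *DAT* mutant vehicle replicate 1, 3 or 4. *tim* gained a call without WT vehicle replicate 4 (0.044). With *DAT* mutant vehicle replicate 2 and WT vehicle replicate 1 included, *CG31324* was at 0.96 (adjusted p = 0.166), *cwo* at 0.66 (0.531), *per* at 0.53 (0.455), *vri* at 0.10 (0.861), *cyc* at -0.78 (0.437) and *Clk* at -0.999 (0.508). With WT vehicle replicate 1 alone added, *tim* was called as well (0.47, adjusted p = 0.0946) and the clock transcripts called rose to 18.

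On AMPH the strains differed in fewer clock genes. *per* was 1.54-fold higher in the *DAT* mutant (0.62 ± 0.13, adjusted p = 0.047) and *tim* 1.43-fold (0.51 ± 0.13, adjusted p = 0.09). *Clk*, at 0.612 of WT (-0.63 ± 0.17, adjusted p = 0.102), and *cyc* (-0.33 ± 0.09, adjusted p = 0.12) did not pass. *cwo* (-0.18 ± 0.14), *CG31324* (0.19 ± 0.12), *cry* (-0.26 ± 0.10), *Pdf* (-0.32 ± 0.19), *vri* (-0.03 ± 0.13) and *Pdp1* (0.02 ± 0.12) did not pass either.

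These are 2 of 10 genes called higher and 0 lower, against 2.60% and 3.39% of all lead transcripts, and 9 of 29 clock transcripts, 8 of them of *tim*, against 5.54% of all. The median change was -0.10, against -0.03 over all lead transcripts. No *tim* call survived any of the 7 fits without 1 library, whichever of the WT AMPH or *DAT* mutant AMPH libraries was left out (adjusted p = 0.126 to 0.294), and *per* lost its call without *DAT* mutant AMPH replicate 2 (0.169) or 3 (0.197).

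The difference between the AMPH responses of the strains was tested directly. It was called for *cwo*, whose response was lower in the *DAT* mutant by -1.21 ± 0.20 on the log2 scale (adjusted p = 0.046), and for *CG31324*, by -1.07 ± 0.16 (adjusted p = 0.032), which rose in WT and fell in the *DAT* mutant. Among all genes this was rare: 0 of 10 clock genes were called higher and 2 lower, against 0.0968% and 0.0871% of all lead transcripts, and 2 of 29 clock transcripts against 0.145% of all transcripts. The other 8 genes ranged from -1.18 ± 0.65 for *Pdf* to 0.13 ± 0.13 for *cyc* (adjusted p = 0.665 or more).

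In both genes the vehicle groups lay further apart than the AMPH groups. For *cwo* the strain means differed by 2.10-fold on vehicle and stood at 0.876 of WT on AMPH, and for *CG31324* by 2.51-fold on vehicle and 1.15-fold on AMPH. Without *DAT* mutant vehicle replicate 4 the call of *CG31324* was lost (adjusted p = 0.11), while the other 12 fits without 1 library kept it. That of *cwo* was lost without WT vehicle replicate 3 (0.136) or 4 (0.135), *DAT* mutant vehicle replicate 1 (0.151) or 4 (0.151), or *DAT* mutant AMPH replicate 1 (0.12) or 3 (0.159). With all 15 libraries the differences were -0.83 for *cwo* and -0.77 for *CG31324* (adjusted p = 0.866 for both).

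The 8 longer *tim* transcripts, FBtr0077566, FBtr0077567, FBtr0100349, FBtr0100350, FBtr0114526, FBtr0114527, FBtr0302831 and FBtr0302832, each changed by 0.37 on AMPH in the *DAT* mutant and by 0.51 between the strains on AMPH, all called. The 2 shorter ones, FBtr0077565 and FBtr0302830, were lower, at 87.0 RPKM each in WT vehicle against 116 for the lead, changed by 0.30 and 0.46 and were not called. The *Clk* transcripts FBtr0076785, FBtr0100132 and FBtr0100134 had equal changes at 2 decimals in every comparison. The *vri* transcripts FBtr0079071 and FBtr0300020 were called wherever the lead FBtr0079070 was. None of the 7 *Pdp1* transcripts was called, and their changes lay between -0.08 and 0.10 in the 4 pairwise comparisons.

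On dm3 the lead transcripts lie on chromosome X from 2579613 to 2586813 (*per*), on 2L from 3493986 to 3507218 (*tim*) and from 5299647 to 5310625 (*vri*), and on 3L from 7757071 to 7768703 (*Clk*), from 7807437 to 7860472 (*Pdp1*) and from 19806892 to 19809038 (*cyc*). On 3R they lie from 6213985 to 6226072 (*cwo*), 15037915 to 15041166 (*cry*), 21932592 to 21955912 (*CG31324*) and 22281184 to 22281863 (*Pdf*). The table lists overlapping genes for 3 of them: *CG2650* on the strand opposite *per*, at a highest mean of 6.79 RPKM, *CG14237* opposite *Pdf*, at 1.84 RPKM, and *CG14556* on the same strand as *CG31324*, at 0.479 RPKM. As the sources used here do not state whether strand was used in counting, reads of these pairs may be shared.

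The ratio of *tim*, an evening gene, to *Clk*, a dawn gene, was taken in each library. Its order between groups follows from the levels given above, so it is a description and no separate test of clock state. On the log2 scale it was 2.77, 3.12 and 3.81 in WT vehicle and 4.10, 4.13, 4.28 and 3.89 in WT AMPH. In the *DAT* mutant it was 4.25, 4.29 and 4.15 on vehicle and 5.66, 5.27 and 5.12 on AMPH. The WT vehicle libraries were the lowest and the most spread, those of *DAT* mutant AMPH the highest, and the remaining groups overlapped between them. WT vehicle replicate 1 stood at 3.21, within its group. *DAT* mutant vehicle replicate 2 stood at 5.95, above all others, so this library also stood apart in a ratio that does not depend on its overall level.

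The ratios of *cwo* and of *CG31324* to *Clk*, which share their denominator with that of *tim*, had the same low group. That of *cwo* was 0.15 to 0.51 in WT vehicle, 2.02 to 2.95 in WT AMPH, 1.89 to 2.04 in *DAT* mutant vehicle and 2.86 to 3.44 in *DAT* mutant AMPH on the log2 scale. That of *CG31324* was -0.20 to 0.40, 1.23 to 1.71, 1.84 to 2.01 and 2.03 to 2.80. By contrast the ratio of *per* to *tim*, repressors of the same arm, was -1.58 to -1.46 in WT vehicle, -2.25 to -1.62 in WT AMPH, -1.46 to -1.248 in *DAT* mutant vehicle and -1.91 to -1.54 in *DAT* mutant AMPH, so that *per* was lower relative to *tim* on AMPH in every library of both strains than in any vehicle library of the same strain.

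Across libraries, the other 9 clock genes were related to *tim* on log2(RPKM + 1). Over all 15 libraries, with the same threshold of 0.1 on adjusted p, *per* (Pearson r = 0.66, permutation p = 0.00636, adjusted over the 9 relations 0.0191, Spearman rho = 0.736, p = 0.00218, adjusted 0.0196) and *CG31324* (r = 0.635, p = 0.0109, adjusted 0.0245, rho = 0.7, p = 0.00523, adjusted 0.0235) rose with *tim*. So did *vri* (r = 0.741, permutation p = 0.00142, adjusted 0.0117, rho = 0.529, p = 0.0433, adjusted 0.0974), *cwo* (r = 0.707, p = 0.00259, adjusted 0.0117, rho = 0.554, p = 0.0356, adjusted 0.0974) and, by Pearson's r alone, *Pdp1* (r = 0.612, p = 0.0149, adjusted 0.0269, rho = 0.454, p = 0.0903, adjusted 0.141). *Clk* (r = 0.0524, permutation p = 0.849, adjusted 0.924, rho = -0.407, p = 0.134, adjusted 0.172) and *cyc* (r = 0.107, p = 0.689, adjusted 0.885, rho = -0.45, p = 0.094, adjusted 0.141) did not pass, nor did *cry* (r = -0.139, permutation p = 0.619, adjusted 0.885, rho = -0.275, p = 0.317, adjusted 0.356) and *Pdf* (r = 0.0254, p = 0.924, adjusted 0.924, rho = -0.121, p = 0.669, adjusted 0.669). Without the libraries farthest from the median of *tim*, which are *DAT* mutant vehicle replicate 2 and *DAT* mutant AMPH replicate 2, r was 0.755 for *per*, 0.686 for *CG31324*, 0.65 for *vri*, 0.592 for *cwo*, 0.258 for *Pdp1*, -0.795 for *Clk*, -0.722 for *cyc*, -0.504 for *cry* and 0.613 for *Pdf*. The sign for the activators thus turned without these libraries, and the relation of *Pdp1* rested on them.

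Over the 13 libraries r with *tim* was -0.748 for *Clk* (permutation p = 0.00417, adjusted 0.0173, rho = -0.665, p = 0.0163, adjusted 0.0488) and -0.712 for *cyc* (p = 0.00578, adjusted 0.0173, rho = -0.769, p = 0.00306, adjusted 0.0143). It was 0.747 for *per* (permutation p = 0.0027, adjusted 0.0173, rho = 0.769, p = 0.00317, adjusted 0.0143). Without WT vehicle replicate 2 and *DAT* mutant AMPH replicate 2, the libraries farthest from the median, r was -0.719, -0.727 and 0.608. *CG31324* also passed 0.1 by both measures (r = 0.661, permutation p = 0.0134, adjusted 0.0301, rho = 0.621, p = 0.0261, adjusted 0.0588), with r at 0.585 without these libraries. By r alone *cwo* (r = 0.565, permutation p = 0.0441, adjusted 0.0661, rho = 0.346, p = 0.248, adjusted 0.372), *vri* (r = 0.541, p = 0.056, adjusted 0.072, rho = 0.275, p = 0.365, adjusted 0.469) and *cry* (r = -0.58, p = 0.0356, adjusted 0.0641, rho = -0.527, p = 0.0673, adjusted 0.121) passed, at 0.436, 0.375 and -0.495 without these libraries. *Pdp1* (r = 0.203, permutation p = 0.511, adjusted 0.511, rho = 0.231, p = 0.449, adjusted 0.505) and *Pdf* (r = 0.376, p = 0.203, adjusted 0.229, rho = 0.0934, p = 0.765, adjusted 0.765) did not.

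The 13 libraries fall into 4 groups that differ in these genes, and the permutations moved libraries freely between groups. The permutation p-values above therefore also reflect the differences between groups. For this reason the same values were taken as deviations from the group means. Then r with *tim* was 0.114 for *Clk*, 0.621 for *cyc*, 0.599 for *per*, 0.167 for *vri*, 0.388 for *Pdp1*, -0.134 for *cwo*, 0.175 for *CG31324*, 0.192 for *cry* and 0.592 for *Pdf*. The negative relation of *Clk* and *cyc* to *tim* did not hold within groups, whereas the positive one of *per* kept its sign. Groups of 3 or 4 libraries are too few for a correlation within each.

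**Figure D3:**
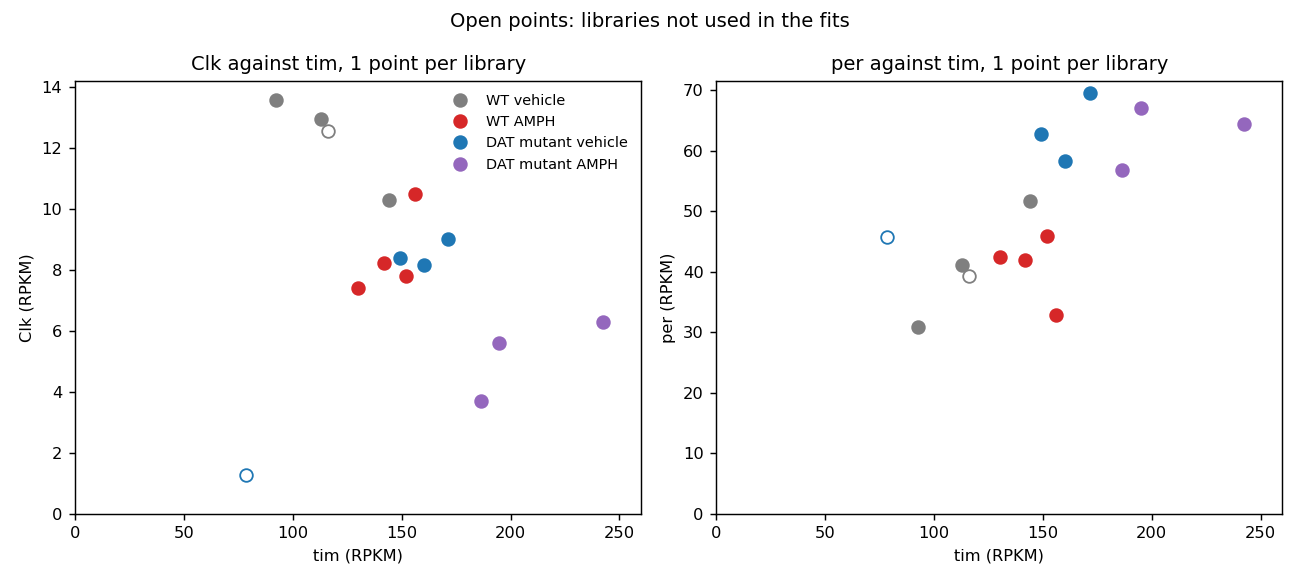
RPKM of *Clk* (left) and *per* (right) against that of *tim* in each library, coloured by group, with open points for the 2 libraries left out. *Clk* was at 13.6 RPKM in the WT vehicle library with *tim* at 92.4 RPKM. It was at 3.70 RPKM in a *DAT* mutant AMPH library with *tim* at 186 RPKM, the lowest *tim* of that group. The inverse order lay between groups and did not hold within them (r of deviations from group means 0.114 over the 13 libraries). In *DAT* mutant vehicle replicate 2 both genes were low, at 1.27 and 78.3 RPKM.

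**Figure D4:**
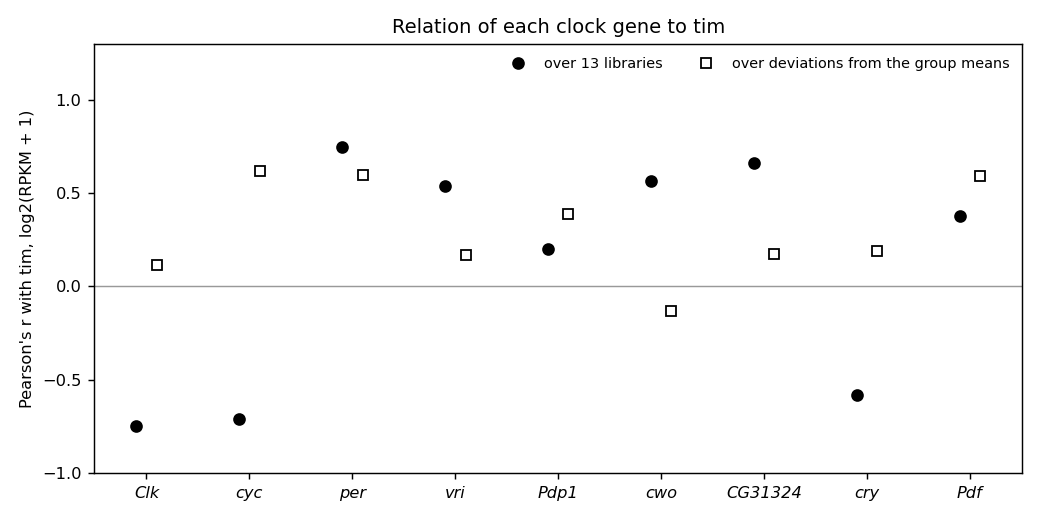
Pearson's r of each clock gene with *tim* on log2(RPKM + 1), over the 13 libraries (filled circles) and over their deviations from the 4 group means (open squares). *Clk* and *cyc* moved from -0.748 and -0.712 to 0.114 and 0.621, and *per* from 0.747 to 0.599.

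Among 7942 other genes with a mean of at least 5 RPKM, those most like *tim* over the 13 libraries were *CG30466* (r = 0.893), *CG4673* (0.889), *CG30152* (0.883), *dgt2* (0.88) and *DIP1* (0.867), and those most unlike it *tud* (-0.895), *CG31304* (-0.887), *lectin-46Cb* (-0.859), *su(Hw)* (-0.855) and *SP2353* (-0.851). The level of *CG4673* followed the order of *tim* on the extremes, with group means of 41.9 RPKM in WT vehicle, 60.3 in WT AMPH, 59.5 in *DAT* mutant vehicle and 90.5 in *DAT* mutant AMPH. That of *tud* ran the other way, at 67.3, 56.8, 50.4 and 41.0 RPKM. These values are descriptions over libraries that share the group differences shown above.

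The genes around the loop are read against the lead transcripts of all genes, of which 7.93% were called higher and 12.3% lower in WT on AMPH (median -0.04), 7.85% and 13.5% in the *DAT* mutant on AMPH (-0.05), 4.12% and 4.44% between the strains on vehicle (-0.01), and 2.60% and 3.39% between them on AMPH (-0.03).

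Of 16 genes that phosphorylate, dephosphorylate, translate or degrade clock proteins, 1 was called higher and 0 lower in WT on AMPH, with a median of -0.04, and 1 higher and 2 lower in the *DAT* mutant, with a median of -0.12. The gene that rose was in both cases *jet*, which encodes an F-box protein that helps degrade TIM in light, at 0.40 ± 0.09 (adjusted p = 0.0213) in WT and 0.31 ± 0.10 (adjusted p = 0.0625) in the *DAT* mutant. *jet* stood at 11.3 to 12.4 RPKM in WT vehicle, 15.02 to 17.1 in WT AMPH, 12.7 to 13.8 in *DAT* mutant vehicle and 15.4 to 17.4 in *DAT* mutant AMPH, without overlap by treatment in either strain. Its call in the *DAT* mutant was lost without vehicle replicate 3 (0.144) or 4 (0.184) or AMPH replicate 1 (0.125) or 3 (0.144). In the mutant *Atx2*, a translational partner of *tyf* in *per* translation, fell by 0.47 ± 0.10 (adjusted p = 0.0195) and *CkIIbeta*, a subunit of a kinase of PER, by 0.41 ± 0.13 (adjusted p = 0.0776). *Atx2* kept its call in all 6 fits without 1 library, and *CkIIbeta* only without AMPH replicate 1 (0.139 to 0.23 without vehicle replicate 1, 3 or 4 or AMPH replicate 2 or 3). On vehicle 1 of the 16 was higher in the *DAT* mutant, *Usp8* (0.497 ± 0.14, adjusted p = 0.0903), a deubiquitinase that acts on CLK, which kept its call only without WT vehicle replicate 4 (0.153 to 0.219 without WT vehicle replicate 2 or 3 or *DAT* mutant vehicle replicate 1, 3 or 4). With all 15 libraries the calls that use the *DAT* mutant vehicle group were lost, with *jet* in the mutant at 0.13 (adjusted p = 0.94), *Atx2* at -0.14 (0.955), *CkIIbeta* at -0.11 (0.96) and *Usp8* at 0.33 (0.564). On AMPH 0 of the 16 were called by limma, 2 at an unadjusted p under 0.05. The medians of the 16 were -0.01 on vehicle and -0.10 on AMPH.

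Of 12 genes of clock neuron signalling, 1 was called higher and 3 lower in WT on AMPH, and 0 higher and 1 lower in the *DAT* mutant. The PDF receptor gene *Pdfr* fell by 0.44 ± 0.10 (adjusted p = 0.0237) in WT and by 0.46 ± 0.12 (adjusted p = 0.0318) in the *DAT* mutant. It stood at 19.3 to 23.5 RPKM in WT vehicle, 14.1 to 16.2 in WT AMPH, 19.6 to 25.2 in *DAT* mutant vehicle and 14.96 to 16.6 in *DAT* mutant AMPH, and lost its call in the mutant without AMPH replicate 3 (0.101). In WT *Dh44*, a neuropeptide of an output centre of the clock, rose by 0.55 ± 0.17 (adjusted p = 0.0632), and the sodium leak channel gene *na* (-0.28 ± 0.10, adjusted p = 0.0974) and its partner *unc80* (-0.34 ± 0.12, adjusted p = 0.0859) fell. *Pdfr* kept its call in WT in all 7 fits without 1 library. *Dh44* lost it without WT vehicle replicate 2 (0.151) or 3 (0.198) or WT AMPH replicate 3 (0.132) or 4 (0.13), *na* without any WT vehicle library used or WT AMPH replicate 2 or 3 (0.121 to 0.254), and *unc80* without any but WT AMPH replicate 4 (0.103 to 0.251). On vehicle *NPF* was higher (0.35 ± 0.09, adjusted p = 0.0761) and *unc79* lower (-0.45 ± 0.09, adjusted p = 0.0313) in the *DAT* mutant. *NPF* kept its call only without *DAT* mutant vehicle replicate 3 (0.104 to 0.236 without any other), and *unc79* lost it without WT vehicle replicate 3 (0.103) or *DAT* mutant vehicle replicate 4 (0.115). *NPF* was not called either with *DAT* mutant vehicle replicate 2 alone left out (0.22, adjusted p = 0.361). With all 15 libraries *Pdfr* in the mutant was at 0.03 (adjusted p = 0.996), *NPF* at 0.31 (0.564) and *unc79* at -0.89 (0.498). The medians of the 12 were -0.15, -0.10, 0.01 and -0.01, in the order of comparisons above. On AMPH 0 of the 12 were called by limma, and 0 had an unadjusted p under 0.05.

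Larger changes were found among genes that cycle in fly heads downstream of the clock. Of 8 such genes, 1 was called higher and 4 lower in WT on AMPH (median -0.77), 2 higher and 3 lower in the *DAT* mutant (median -0.32), 3 higher and 2 lower in the *DAT* mutant on vehicle (median 0.17) and 3 higher and 1 lower on AMPH (median 0.05). *Cyp4d21*, a cytochrome P450 gene, stood at 45.4 to 58.6 RPKM in WT vehicle and 8.63 to 16.1 RPKM in WT AMPH (-2.01 ± 0.19, adjusted p = 0.000682). It stood at 116 to 179 RPKM in *DAT* mutant vehicle and 28.9 to 42.0 RPKM in *DAT* mutant AMPH (-1.895 ± 0.19, adjusted p = 0.000885). Between the strains it was higher in the *DAT* mutant by 1.44 ± 0.17 on vehicle (adjusted p = 0.0036) and by 1.55 ± 0.20 on AMPH (adjusted p = 0.00672). With all 15 libraries the difference on vehicle was 1.14 and no longer called (adjusted p = 0.111), and the fall in the mutant was -1.72 (0.0392).

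*to* (takeout), a clock output linked to feeding, went in opposite directions. It fell by 2.01 ± 0.40 in WT on AMPH (adjusted p = 0.0154), from 69.6 to 120.0 RPKM to 10.5 to 38.0 RPKM, and rose by 1.29 ± 0.21 in the *DAT* mutant (adjusted p = 0.006), from 936 to 1518 RPKM to 2293 to 3001 RPKM. The difference of 3.30 ± 0.52 was called (adjusted p = 0.0412), and was lost without WT vehicle replicate 3 (0.133) or 4 (0.111), *DAT* mutant vehicle replicate 1 (0.139) or 3 (0.111), or *DAT* mutant AMPH replicate 1 (0.106) or 3 (0.13). With all 15 libraries the difference was called (3.07, adjusted p = 0.0948), but the rise in the mutant was not (1.02, adjusted p = 0.371). The strains differed by 3.54 ± 0.24 on vehicle (adjusted p = 0.00025) and by 6.85 ± 0.38 on AMPH (adjusted p = 7.06e-05).

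*nemy*, a cytochrome b561 gene, rose on AMPH by 1.06 ± 0.19 in WT (adjusted p = 0.0112) and by 0.86 ± 0.17 in the *DAT* mutant (adjusted p = 0.0136). *Ugt35b*, a UDP-glycosyltransferase gene, fell by 1.22 ± 0.16 (adjusted p = 0.00323) and by 0.81 ± 0.14 (adjusted p = 0.00682). Both kept these calls in every fit without 1 library, and in WT with all 15 libraries, but not in the mutant with all 15 (*nemy* 1.24, adjusted p = 0.372, and *Ugt35b* -0.72, 0.26). On vehicle *CG14275* (-0.72 ± 0.15, adjusted p = 0.0399, lost without *DAT* mutant vehicle replicate 1 at 0.102) and *Ugt35b* (-0.71 ± 0.10, adjusted p = 0.00843) were lower in the *DAT* mutant, with an adjusted p of 0.162 and 0.0979 in all 15 libraries. On AMPH *Slob*, which encodes a binding partner of the Slowpoke potassium channel, was higher in the *DAT* mutant (0.76 ± 0.12, adjusted p = 0.0147) and *nemy* lower (-0.51 ± 0.14, adjusted p = 0.098), a call that held only without *DAT* mutant AMPH replicate 1 (0.122 to 0.336 without any other library).

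Markers of cell types in the head were measured beside the clock genes, against 12.3% of all lead transcripts called lower on AMPH in WT and 13.5% in the *DAT* mutant. Of 6 glial markers 2 were called lower in WT flies (median -0.33) and 5 in *DAT* mutants (median -0.72), and their summed level was 625 to 766 RPKM in WT vehicle, 480 to 560.0 in WT AMPH, 515 to 717 in *DAT* mutant vehicle and 377 to 404 in *DAT* mutant AMPH. In WT *wrapper* kept its call in all 7 fits without 1 library and *repo* only without WT AMPH replicate 1 (0.147 to 0.201 without any other library). In the mutant *alrm*, *Gs2*, *repo* and *wrapper* kept theirs in all 6 fits and *Eaat1* lost it without vehicle replicate 4 (0.115), whereas with all 15 libraries none of the 5 was called (adjusted p = 0.124 to 0.993).

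Of 10 photoreceptor markers 1 was called lower in WT flies (median -0.28) and 4 in *DAT* mutants (median -0.30). Their sums were 31410 to 57590 RPKM in WT vehicle, 36580 to 47350 in WT AMPH, 52290 to 55370 in *DAT* mutant vehicle and 43940 to 46350 in *DAT* mutant AMPH, so that WT AMPH lay inside the range of WT vehicle. The WT call, of *inaD*, was lost without WT vehicle replicate 3 or 4 or WT AMPH replicate 1, 2 or 3 (0.115 to 0.23). In the mutant *chp*, *inaD* and *norpA* were called in all 6 fits without 1 library and *ninaC* in 0 (0.11 to 0.178), and with all 15 libraries none of the 4 was called (0.933 to 0.983).

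Of 7 neuronal markers 2 were called lower in each strain (median -0.30 in both), and their sums were 833 to 897, 675 to 879, 885 to 961 and 657 to 809 RPKM in the same order. These counts rested on single libraries. In WT both *elav* and *brp* lost their calls without WT vehicle replicate 2 (0.191 and 0.209) or 3 (0.169 and 0.104) or WT AMPH replicate 2 (0.124 and 0.137) or 4 (0.121 and 0.115), *elav* also without WT AMPH replicate 3 (0.108) and *brp* without WT vehicle replicate 4 (0.156). In the mutant both *nSyb* and *Syx1A* lost theirs without vehicle replicate 3 (0.104 and 0.163) or 4 (0.137 and 0.186) or AMPH replicate 3 (0.162 and 0.236), and *Syx1A* also without vehicle replicate 1 (0.164) or AMPH replicate 2 (0.204). Neither was called in the mutant with all 15 libraries (0.965 and 0.985).

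Of 5 fat body markers that could be tested, *apolpp* and *Lsp1beta* were called lower in WT and these and *Lsp2* in the *DAT* mutant, in every fit without 1 library and with all 15 libraries. The sums over 8 markers were 337 to 445 RPKM in WT vehicle, 186 to 301 in WT AMPH, 381 to 472 in *DAT* mutant vehicle and 140 to 203 in *DAT* mutant AMPH, with *Lsp1alpha* near 0, at group means of 0.049 to 0.105 RPKM, except for 1.17 RPKM in *DAT* mutant vehicle.

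Between the strains on vehicle 0 of 6 glial markers were called. In the *DAT* mutant 1 of 10 photoreceptor markers was called higher, and 1 of 7 neuronal and 1 of 5 fat body markers lower. Among all lead transcripts 4.12% were called higher and 4.44% lower. By limma 1, 2, 3 and 3 of these markers, in the same order, had an unadjusted p under 0.05. The photoreceptor marker *chp* kept its call only without WT vehicle replicate 3 (0.126 to 0.223 without any other library), and the neuronal marker *cac* lost it without *DAT* mutant vehicle replicate 1 (0.142) or 4 (0.169). Neither was called with all 15 libraries (0.725 and 0.337), while the fat body marker *Yp3* was (0.0262). On AMPH 1 of 6 glial markers was called higher in the *DAT* mutant and 1 lower, and 1 of 5 fat body markers lower. Among all lead transcripts 2.60% were higher and 3.39% lower there. The glial marker called lower, *Eaat1* (-0.56, adjusted p = 0.0753), kept its call in 2 of 7 fits without 1 library. By limma 0 of 10 photoreceptor and 0 of 7 neuronal markers were called, 3 and 1 at an unadjusted p under 0.05. The part of these cell types in the fall of *cry*, *Clk* and *cyc* on AMPH, or in the strain differences of clock genes on vehicle or on AMPH, was not tested.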

How the data were processed

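RNA was measured by polyA sequencing on an Ion Torrent instrument. The authors mapped reads to dm3 and deposited RPKM values per transcript, which equalled those of the 15 single library files. As these are not counts, limma 3.58.1 in R 4.3.3 with a mean-variance trend was fitted to log2(RPKM + 1). Transcripts were tested where the number of libraries at 1 RPKM or more was no lower than the size of the smaller group, with Benjamini-Hochberg adjustment over all of them and a threshold of 0.1, the level the study used. Each comparison was fitted on the groups compared, and the difference between responses in a joint fit of the 4 groups. Averages over the 13 libraries equal the group means of the study. The labels give separate flies, so p-values measure the spread between single heads within the groups. The library titles carry a prefix that is the same within each group and differs between groups. Its meaning is not given, so a batch under that prefix could not be told apart from strain and treatment. Depth was estimated on 722 single-exon transcripts, from the spacing of their lowest values. Correlations used 100000 permutations, two-sided (scipy 1.17.1). Precision is limited to n = 3 or 4 per group.

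The named genes were all 10 members, list genes past the threshold (at most 4 per list and comparison, largest change first) and the 5 most and 5 least *tim*-like genes. The members and lists were chosen with earlier results of these data known. Of the listed genes, 12 were matched through a later annotation and 2, *wake* and *Lsp1gamma*, were not used here. The script was tested on simulated data. Alternatives were all 15 libraries, 2 filters, a pseudocount of 0.1, median and quantile scaling, 1 lead transcript per gene, a replicate block, all 4 groups in each fit, and each library left out. Leaving out *DAT* mutant vehicle replicate 2 alone was added after seeing the data.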

Additional observations from a re-analysis of the deposited data

Results flagged for a closer look

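*Clk* in *DAT* mutant vehicle replicate 2, at 1.27 RPKM, lay far below the other 3 libraries of its group, with a gap of 0.889 of the range of the group. Of 30 groups of 4 libraries tested, about 1 in 20 would be singled out by chance.

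The AMPH response of *cwo* differed between the strains by -1.21 on the log2 scale (*DAT* mutant minus WT), that of *CG31324* by -1.07 and that of *to* by 3.30, each past the threshold in the direct test of the difference.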

How the results depend on the processing

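Of 880 alternative values for the 10 clock genes, 708 kept direction and side of the threshold, 109 lost the call, 5 gained it and 58 changed sign, all of the last for values called under neither setting. The 880 values cover 50 gene results, most of them not called in the main fits. Those had no call to lose, so 109 of 880 is not the rate of loss among calls. The causes of the changes below were not tested. With all 15 libraries the clock transcripts called were 0 in the *DAT* mutant on AMPH (258 of all transcripts), 0 between the strains on vehicle (189) and 0 for the difference between responses (8). Without *DAT* mutant vehicle replicate 2 alone 18 were called between the strains on vehicle. With no filter the counts were 6 in the *DAT* mutant and 3 between the strains on vehicle. With 1 lead transcript per gene 10 of the 29 clock transcripts remain, so lower counts follow in part from the setting. They were 6 in WT, 3 in the *DAT* mutant, 5 between the strains on vehicle and 2 on AMPH. The main fits called 6, 6, 6 and 2 lead transcripts of clock genes there. The transcripts called in all were 1776, 1903, 736 and 586. With all 4 groups in each fit the clock transcripts called were 5 in the *DAT* mutant and 15 between the strains on AMPH (1652 of all). In the last comparison they were 1 with a mean of at least 5 RPKM and 1 after quantile scaling.

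The replicate numbers used here follow the order in which libraries are listed, and the labels give no pairing. Same-numbered libraries did not deviate together (r of -0.525 to 0.205 over 10 numbers), but numbers of this kind could not show a pairing. A replicate block on them is therefore arbitrary. It left 4 clock transcripts called in WT, 4 in the *DAT* mutant (1774 of all), 1 between the strains on vehicle (75) and 0 on AMPH (109). Under the block *per* was at -0.0133 in WT and 0.0272 for the difference between responses, and *Pdp1* at -0.0304 between the strains on vehicle and 0.046 for the difference.

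Leaving out 1 library at a time gave 3 to 17 clock transcripts in WT (2108 to 4677 of all), 4 to 14 in the *DAT* mutant (2145 to 4041), 2 to 19 between the strains on vehicle (570 to 1331), 0 to 1 on AMPH (310 to 1084) and 0 to 2 for the difference (7 to 44). In these fits the log2 changes that crossed 0 were, in WT, *per* (-0.19 to 0.18), *Pdp1* (-0.11 to 0.0715) and *Pdf* (-0.18 to 1.13), in the *DAT* mutant *per* (-0.0771 to 0.0517) and *Pdp1* (-0.0779 to 0.0221), on vehicle *Pdp1* (-0.061 to 0.12) and *cry* (-0.15 to 0.0151), on AMPH *vri* (-0.11 to 0.0226) and *Pdp1* (-0.0212 to 0.0828), and for the difference *per* (-0.20 to 0.17), *tim* (-0.13 to 0.19), *Clk* (-0.29 to 0.0316) and *Pdp1* (-0.10 to 0.079).

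Other sign changes came with all 15 libraries. *Pdp1* was then at 0.0011 in WT (also 0.0011 without *DAT* mutant vehicle replicate 2 alone), 0.32 in the *DAT* mutant, -0.30 on vehicle and 0.32 for the difference. In the *DAT* mutant *per* was at 0.0986, *cyc* at 0.0875, *vri* at 0.26, *Pdfr* at 0.0328 and the neuronal marker *Syx1A* at 0.0723, both called lower in the 13 libraries, and for the difference *per* was at 0.0865, *Clk* at 0.37 and *cry* at 0.0826. With library medians set equal *Pdp1* was at 0.0555 in WT, 0.0609 in the *DAT* mutant and 0.0055 for the difference, *per* at 0.0743 in the *DAT* mutant and *vri* at 0.0051 between the strains on AMPH. With quantile scaling *Pdp1* was at 0.0238 in WT, 0.0616 in the *DAT* mutant, -0.0217 on vehicle and 0.0376 for the difference, and *per* at 0.0738 in the *DAT* mutant. The relation with *tim* changed from all 15 libraries to the 13, to -0.748 for *Clk*, -0.712 for *cyc*, 0.203 for *Pdp1* and -0.58 for *cry*.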
